A study of Rattus norvegicus with 2 samples.

Results

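The genes described are those of the respiratory chain and the ATP synthase that are encoded in the nucleus. They were taken from the expression table of the series by symbol, namely every row that begins with Nduf, Uqcr, Atp5 or Cox and a digit, together with Sdha to Sdhd, Cyc1 and Cycs. This gave 97 genes of the 17049 in the table. They comprise 34 subunits of complex I, 4 of complex II, 9 of complex III, cytochrome c, 14 genes of complex IV including isoforms of other tissues, 14 of complex V, 19 assembly factors and related proteins, and 2 copies with names like those of a subunit (Cox7a2l2 and Ndufa10l1). A subunit without a row under such a symbol is not covered, so counts, sums and medians per complex need not span the whole complex. The series holds 2 RNA-seq libraries of oligodendrocyte precursor cells (OPCs), the dividing glial cells from which oligodendrocytes form, grown as primary cells from the brain of adult wild-type rats. In the Aβ group the treatment label is Aβ, the amyloid peptide that accumulates in Alzheimer's disease, at 1 µM for 2 days. In the DMSO group the treatment label is DMSO, the solvent. The treatment text attached to both samples names Aβ, so the groups were read from the treatment label. Both cultures were kept in the medium called OGM at 37 °C and 5% CO2, and each mRNA library was made from 1 µg of total RNA. The sources used here do not give the number of animals, their age in days or any pooling. With 1 library in each group there is no replicate error and no test between conditions.

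The respiratory chain passes electrons from NADH and succinate to oxygen in the inner mitochondrial membrane. Complex I (NADH dehydrogenase) and complex II (succinate dehydrogenase) hand electrons to ubiquinone, complex III to cytochrome c, and complex IV (cytochrome c oxidase) to oxygen. Complexes I, III and IV pump protons, and complex V, the ATP synthase, uses the proton gradient to make ATP. All but complex II also contain subunits encoded in mitochondrial DNA, which are not analysed here. Oligodendrocyte precursors rely on oxidative metabolism, and differentiation into myelin-forming cells raises the demand for ATP and lipid precursors.

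The libraries held 15704932 reads (Aβ) and 15663751 reads (DMSO), and 12734 (Aβ) and 12776 (DMSO) genes reached 1 TPM (a level per gene length, scaled to the same total in each library). Of 10 markers of OPCs, 9 had a row. Their summed level was 2675 TPM with Aβ and 2884 TPM with DMSO, mostly from Olig1, Ptprz1 and Olig2, and by reads 3 of the 9 were higher and 6 lower with Aβ. The 3 higher were Cspg4, C1ql1 and Vcan. Cspg4 had 6.65 TPM and 540 reads with Aβ and 3.70 TPM and 303 reads with DMSO. C1ql1 had 8.24 TPM and 80 reads with Aβ and 4.25 TPM and 41 reads with DMSO. Vcan had 14.3 TPM with Aβ and 13.3 TPM with DMSO. Pdgfra, the growth factor receptor that marks these cells, had 23.2 TPM with Aβ and 24.6 TPM with DMSO. Sox10, a defining transcription factor of the lineage, was nearly absent, at 0.84 TPM with Aβ and 1.22 TPM with DMSO, as was Gpr17, at 0.13 TPM in each library. Markers of other cell types also had reads in both libraries, though those of endothelium had only 1 to 5 reads each. The 6 astrocyte markers summed to 1790 TPM with Aβ and 1799 TPM with DMSO, and the 9 markers of microglia and macrophages to 186 TPM with Aβ and 237 TPM with DMSO, with 7 of the 9 lower by reads. The 7 oligodendrocyte markers summed to 211 TPM with Aβ and 223 TPM with DMSO, mostly from Cnp (169 TPM with Aβ, 178 TPM with DMSO). The 6 neuronal markers summed to 127 TPM with Aβ and 124 TPM with DMSO, mostly from Map2 (105 TPM with Aβ, 107 TPM with DMSO). For 3 of 4 endothelial markers the sum was 0.23 TPM with Aβ and 0.16 TPM with DMSO. For 5 of 6 pericyte and fibroblast markers it was 2.86 TPM with Aβ and 6.17 TPM with DMSO, and Acta2 among them had no read with Aβ. In such bulk samples fewer cells of a type and less RNA per cell cannot be told apart. The part of these cells in the values below was not tested.

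The nuclear subunits were among the abundant transcripts of both libraries. The 97 genes together held 2.81% of the summed TPM with Aβ and 2.83% with DMSO, and 69 of them stood at 100 TPM or more in both libraries. Atp5b, the catalytic beta subunit of the ATP synthase, had the highest level of all members, at 1354 TPM with Aβ and 1334 TPM with DMSO. Ndufb4, an accessory subunit in the membrane arm of complex I, came next at 1112 TPM with Aβ and 1232 TPM with DMSO. It was far above every other subunit of complex I, of which Ndufb8 was next at 377 TPM with Aβ and 402 TPM with DMSO. Among the 10 highest levels, 8 genes were the same in the 2 libraries, and these were all subunits of complexes I, IV and V. The lowest subunit of complex I was Ndufv3, at 55.9 TPM with Aβ and 50.2 TPM with DMSO. Assembly factors were lower as a group, with a median of 23.5 TPM with Aβ and 27.6 TPM with DMSO, against 263.5 TPM with Aβ and 263.7 TPM with DMSO for the 74 expressed structural subunits and cytochrome c. Levels of very short genes rest on very small effective lengths (the number of positions a fragment can start from), such as 28.8 bases with Aβ and 24.9 bases with DMSO for Atp5i, so that a few bases move such a level.

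**Figure D1:**
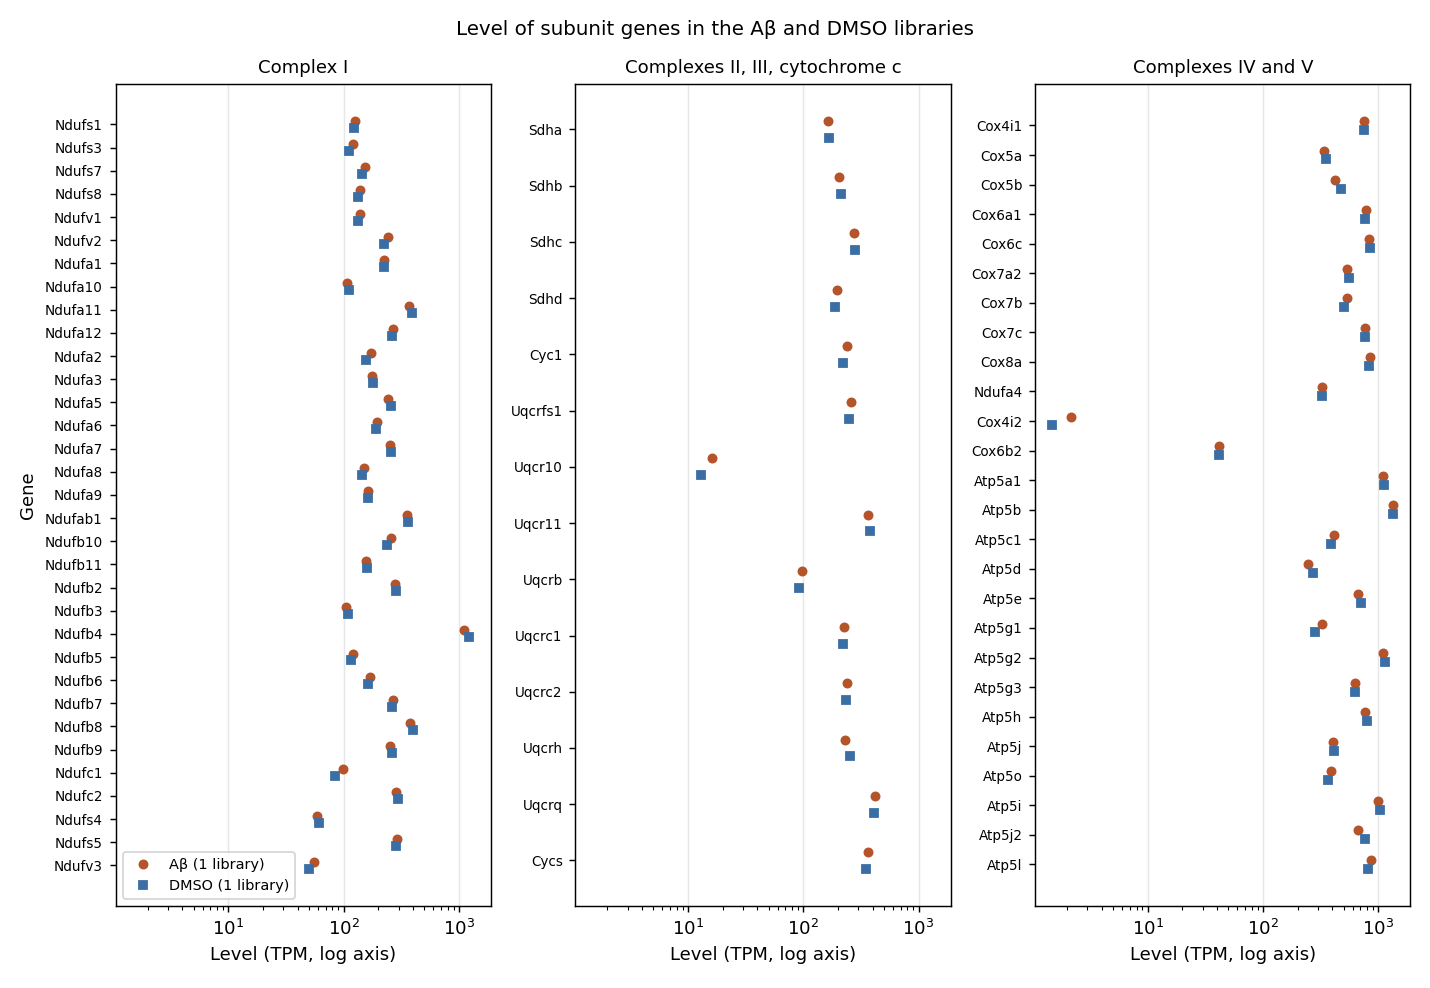
Level of subunit genes in TPM (log axis) in the Aβ library (circles) and the DMSO library (squares), by complex, with 1 library per group and no error bars; 1 gene is left out. The symbols of both libraries lie close together for nearly every gene, most of them between 100 and 1354 TPM, and the isoform Cox4i2 lies far to the left at 2.17 TPM with Aβ and 1.48 TPM with DMSO. Members under 1 TPM in both libraries are not drawn.

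Promoters of these genes were read for 3 sequence motifs that are known for nuclear genes of the respiratory chain, shown here on the promoters of 3 members that the values below come back to. Nuclear respiratory factor 1 (NRF-1) binds a motif searched as GCGCA, any base and GCGC in a row, GABP (an ETS factor, also called NRF-2) was searched as CCGGAAG, and YY1 as GCCATNTT, each on both strands, with N for any base and with matches of each motif counted whether or not they overlap those of another. Sdha, the catalytic subunit of complex II, holds 3 NRF-1 matches and 1 YY1 match. Ndufc1 had the highest ratio of reads between the libraries among subunits with 200 or more reads, and Atp5j2 (RefSeq symbol Atp5mf) the lowest. The windows run from 250 bases before to 50 bases after the annotated start, in rat build GRCr8, from RefSeq, at chr1:30764303-30764602 on the plus strand (Sdha), chr2:137601686-137601985 on the minus strand (Ndufc1) and chr12:14535185-14535484 on the plus strand (Atp5j2). Each is written 5′ to 3′ in the direction of the gene, and capitals mark the NRF-1 and YY1 matches.
Sdha: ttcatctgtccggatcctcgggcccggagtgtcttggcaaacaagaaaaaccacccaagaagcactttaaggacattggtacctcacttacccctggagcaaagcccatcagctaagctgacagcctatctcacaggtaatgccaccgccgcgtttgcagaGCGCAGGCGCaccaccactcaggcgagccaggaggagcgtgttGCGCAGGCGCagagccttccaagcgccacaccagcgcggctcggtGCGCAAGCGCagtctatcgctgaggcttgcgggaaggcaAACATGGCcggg
Ndufc1: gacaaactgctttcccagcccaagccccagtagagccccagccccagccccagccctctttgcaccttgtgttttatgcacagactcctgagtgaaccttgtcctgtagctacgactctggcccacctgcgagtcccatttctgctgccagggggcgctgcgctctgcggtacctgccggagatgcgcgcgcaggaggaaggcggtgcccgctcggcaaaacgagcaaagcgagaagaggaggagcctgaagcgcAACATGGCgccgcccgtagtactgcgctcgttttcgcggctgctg
Atp5j2: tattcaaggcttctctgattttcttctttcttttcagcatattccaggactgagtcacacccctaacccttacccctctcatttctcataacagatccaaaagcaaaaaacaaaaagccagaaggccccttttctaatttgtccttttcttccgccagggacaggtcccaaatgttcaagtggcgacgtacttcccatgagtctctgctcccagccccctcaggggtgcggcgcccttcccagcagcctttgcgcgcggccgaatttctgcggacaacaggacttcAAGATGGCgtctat
The NRF-1 matches of Sdha begin 89 bases, 46 bases and 1 base before the start, and the YY1 match at position 39 after it. The YY1 matches of Ndufc1 and Atp5j2 begin at positions 6 and 37 after the start, and in all 3 genes they read ATGGC at their end, the reverse strand of the letters searched.

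A window was found for 82 of the 97 genes, 81 of them expressed at 1 TPM or more. A YY1 match occurred in 28 of the 81 (34.6%), against 10.3% of 9479 other expressed genes and 7.58% of all 24206 windows. In 17 of the 28 a match lay after the start. On the reverse strand the letters searched for YY1 include ATG, the letters of a start codon. Overlap of the matches with start codons was not tested, and the other genes were not matched for it. An NRF-1 match occurred in 17 of the 81 (21.0%), against 10.4% of other expressed genes and 4.95% of all windows, and a GABP match in 23 (28.4%), against 18.3% of other expressed genes and 9.49% of all windows. Of the other 5 motifs searched, the GC box (GGGCGG) was in 42.0% of the members, 63.9% of other expressed genes and 35.9% of all windows, and the CCAAT box (CCAAT) in 29.6% of the members, 38.0% of other expressed genes and 37.8% of all windows. In the same order of members, other expressed genes and all windows, the E-box (CACGTG) was in 7.41%, 9.73% and 6.74%, the CRE (TGACGTCA) in 4.94%, 3.37% and 1.91%, and the AP-1 motif (TGANTCA) in 4.94%, 4.76% and 7.33%. The median log2 ratio of reads, Aβ over DMSO, was 0.06 for members with a YY1 match and 0.05 for those without. It was 0.03 with and 0.05 without an NRF-1 match, and 0.04 with and 0.05 without a GABP match. A match describes the letters of a window and is not a binding site.

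Between the libraries, the genes of the respiratory chain and ATP synthase lay close to equal. Of the 97, 94 reached 1 TPM in either library. Their median log2 ratio, Aβ over DMSO, was 0.02 by TPM (with a pseudocount of 1), which is 1.01-fold, beside 0.01 over all 12980 genes at that level. By reads per total reads it was 0.05 (1.04-fold), beside 0.00 over all genes. For the 89 members with 200 or more reads over both libraries, the ratio of reads lay between 0.799 and 1.21, and 74 of them were within a factor of 1.1 of equality. No member was 2-fold higher with Aβ (background 0.501% of genes), and 1, Cox7a2l2, was 2-fold lower (background 0.493%).

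By reads, a call of higher or lower means that the 95% exact interval of the read ratio excludes 1. Such an interval covers counting error only and compares these 2 libraries, not the conditions. On that basis 13 of the 94 members were higher with Aβ (13.8%), beside a background of 12% of all genes, and 3 were lower (3.19%), beside 12.5%. The share called higher was thus near the background and the share called lower was under it. The members called higher were Ndufv2, Ndufb10, Ndufc1, Cyc1, Cox7b, Cox8a, Atp5c1, Atp5g1, Atp5o, Atp5l, Ndufaf3, Ndufaf4 and Cox7a2l, and those called lower were Atp5d, Cox20 and Cox7a2l2. Without regard to the intervals, 70 of 94 members had more reads per total with Aβ (74.5%), against 50.3% of all genes, and 56 had a higher TPM (59.6%), against 51.7%. The direction was thus the more uneven by reads.

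**Figure D2:**
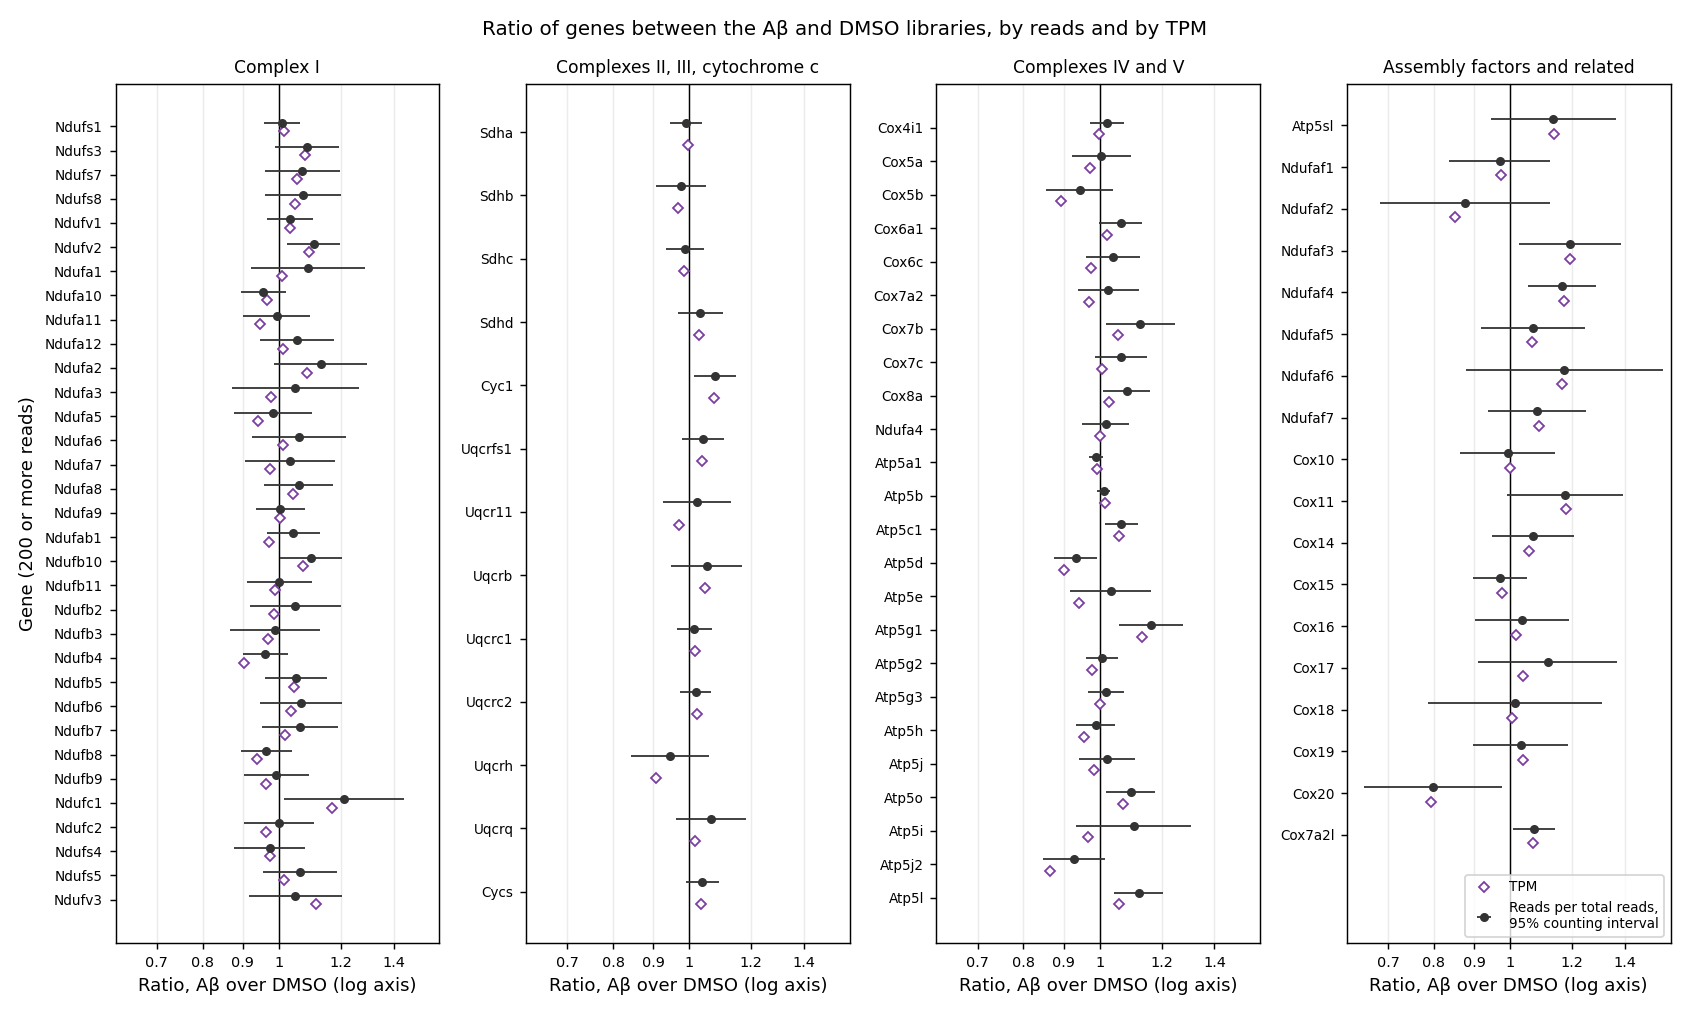
Ratio of Aβ over DMSO (log axis) for members with 200 or more reads (1 gene is left out), by reads per total reads (filled circles, with lines for the 95% counting interval) and by TPM (open diamonds). Of all 89 such members, 74 have a read interval that includes 1, and the diamonds of many subunits lie left of their circles, while those of most assembly factors lie close to them.

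The 2 scales gave different ratios for short genes. The effective length that the authors' FPKM and read values imply was longer in the Aβ library, by a median of 13.4 bases over 1342 genes under 1000 bases (5.52 to 20.2 from the 5th to the 95th percentile) and 13.1 bases over 68 members under 1000 bases. A constant number of bases weighs more on short transcripts, and the members were short, with a median effective length of 405 bases in the DMSO library, against 2151 bases for all expressed genes. Among the 47 members under 400 bases, 35 were higher with Aβ by reads (median log2 ratio 0.07) and 21 by TPM (median −0.02). The 497 other genes under 400 bases had medians of 0.04 by reads and −0.02 by TPM, and 12.3% of them were called higher and 6.24% lower by reads. Among the 47 members of 400 bases or more, where the scales nearly coincide, 35 were higher by either scale, with a median log2 ratio of 0.05 by reads and 0.04 by TPM (1.03-fold). The 12369 other genes of that length had medians of 0.00 by reads and 0.01 by TPM, and 51.9% of them were higher by TPM. They were longer, with a median effective length of 2252 bases in the DMSO library, against 899 bases for these members. At 20 TPM or more in both libraries and 200 or more reads, 25 members of 400 to 1000 bases had medians of 0.07 by reads and 0.06 by TPM. The 997 other genes of that range had 0.03 and 0.01. From 1000 to 3000 bases, the 14 members and the 3416 other genes all had medians of 0.01 on either scale. With the counting interval moved onto the TPM scale, a setting chosen after seeing the data, 7 members were higher (background 12.7%) and 6 lower (background 11.8%). Of the 16 members called by reads, 10 were called on both scales: Atp5c1, Atp5g1, Cox7a2l, Cyc1, Ndufaf3, Ndufaf4 and Ndufv2 as higher, and Atp5d, Cox20 and Cox7a2l2 as lower.

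**Figure D3:**
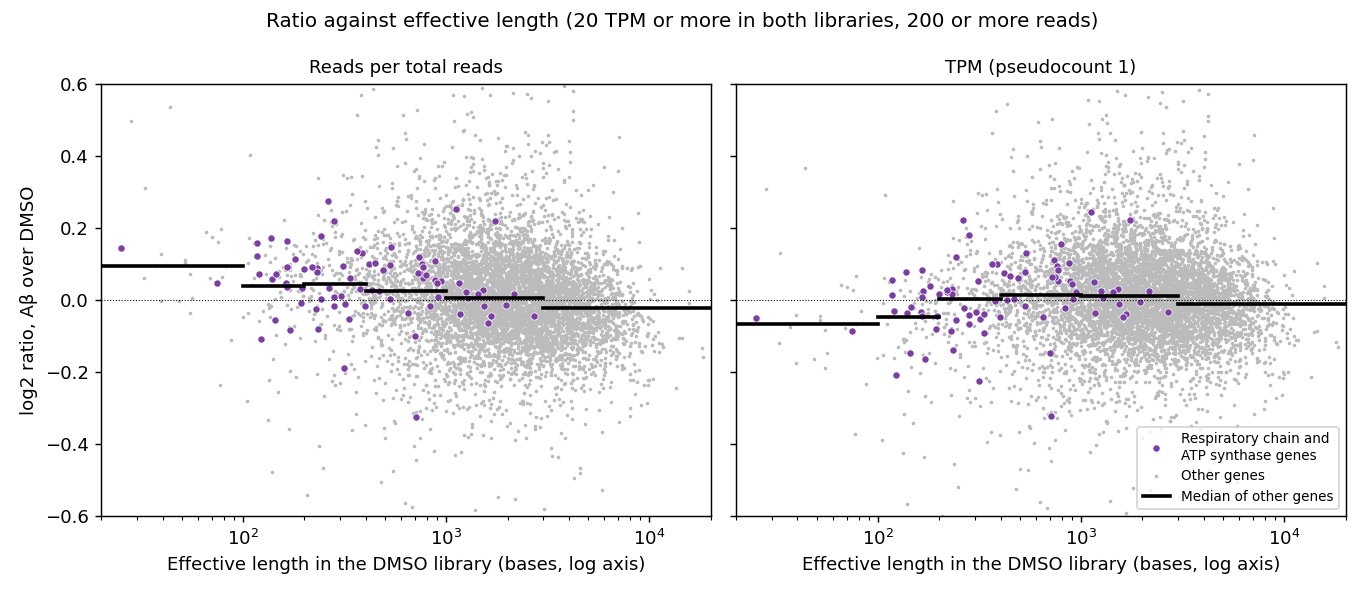
Log2 ratio of Aβ over DMSO against effective length in the DMSO library (bases, log axis) for members (purple) and other genes (grey) at 20 TPM or more in both libraries and 200 or more reads, by reads (left) and by TPM (right), with bars for the median of other genes in each range of length. Points beyond the vertical axis are not drawn. Below 100 bases the median of other genes is 0.10 by reads and −0.07 by TPM, and the 2 members there have medians of 0.10 and −0.07.

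Complex I takes electrons from NADH through its 7 nuclear core subunits, and all 7 were higher with Aβ by both scales, by small amounts. Ndufv2, an iron-sulphur subunit of the NADH-oxidising module, had 244 TPM and 1390 reads with Aβ and 223 TPM and 1251 reads with DMSO. Its read ratio of 1.11 (95% counting interval 1.03 to 1.2) was the one among the 7 whose interval excluded 1 (14.3%, beside 12% of all genes called higher). The flavin-binding partner Ndufv1 had 139 TPM with Aβ and 134 TPM with DMSO, a read ratio of 1.03 (0.965 to 1.11). Ndufs1, the largest subunit, had 124.5 TPM with Aβ and 122.5 TPM with DMSO, and its read ratio was 1.01 (0.959 to 1.07). In the module that reduces ubiquinone, Ndufs3 had 121 TPM with Aβ and 112 TPM with DMSO (read ratio 1.09, 0.990 to 1.19). Ndufs7 had 153.5 TPM with Aβ and 145.6 TPM with DMSO (1.07, 0.960 to 1.2). Ndufs8 had 139 TPM with Aβ and 132 TPM with DMSO (1.07, 0.962 to 1.2). The median log2 ratio of the 7 core genes was 0.07 by TPM and 0.10 by reads. Over all genes, 51.7% were higher by TPM and 50.3% by reads.

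The 27 accessory subunits of complex I, which surround the core and serve stability and assembly, had no common direction by TPM, with 13 higher and 14 lower with Aβ (median −0.02 on the log2 scale). By reads 19 were higher and the median was 0.07. The accessory genes were short, with a median effective length of 261 bases in the DMSO library, against 735 bases for the 7 core genes. Of the 497 other genes under 400 bases, 44.1% were higher by TPM and 58.4% by reads. Ndufc1, a small membrane subunit whose promoter is printed above, had the highest ratio, at 99.0 TPM and 284 reads with Aβ and 84.8 TPM and 234 reads with DMSO. Its read ratio was 1.21 (1.01 to 1.45). Ndufb10, of the membrane arm, had 256 TPM and 1006 reads with Aβ and 239 TPM and 913 reads with DMSO, and the lower bound of its interval was just above 1 (1.1, 1.00 to 1.2). Ndufa2, of the NADH-oxidising module, had 172 TPM with Aβ and 158 TPM with DMSO (1.13, 0.987 to 1.30). By reads no accessory subunit was called lower, beside 12.5% of all genes and 6.24% of other genes under 400 bases. Those called higher numbered 2 (7.41%), beside 12% of all genes. Over the 27 the read ratio ran from 0.956 to 1.21. The abundant Ndufb4 had 1785 reads with Aβ and 1852 reads with DMSO (0.961, 0.9 to 1.03). Its TPM ratio of 0.903 had an interval on that scale of 0.845 to 0.964, which excludes 1. Ndufb8, also of the membrane arm, had 1363 reads with Aβ and 1409 reads with DMSO (0.965, 0.895 to 1.04). Among the members with 200 or more reads, these 2 subunits and Ndufa10 stand among the 10 lowest read ratios. Of the subunits with divided reads, Ndufa1 had 226 TPM with Aβ and 224 TPM with DMSO, Ndufa12 had 267 TPM with Aβ and 264 TPM with DMSO, and Ndufa10 had 107 TPM with Aβ and 111 TPM with DMSO. Ndufv3 was the subunit whose TPM ratio (1.12) exceeded its read ratio (1.05) most, with an implied effective length of 754 bases with Aβ and 791 bases with DMSO. Summed over its 34 subunits, complex I had 7762 TPM with Aβ and 7858 TPM with DMSO, a ratio of 0.988, and without Ndufb4 the ratio was 1.00.

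Complex II, the enzyme shared by the tricarboxylic acid cycle and the chain, lay close to equal by level and by reads. Sdha, the flavoprotein that oxidises succinate, had 164.8 TPM and 3394 reads with Aβ and 165.6 TPM and 3418 reads with DMSO (read ratio 0.990, 0.944 to 1.04). Sdhb, the iron-sulphur subunit, had 204 TPM with Aβ and 210 TPM with DMSO (0.976, 0.906 to 1.05). Of the membrane anchors, Sdhc had 276 TPM with Aβ and 280 TPM with DMSO (0.988, 0.934 to 1.05), and Sdhd had 196 TPM with Aβ and 190 TPM with DMSO (1.03, 0.968 to 1.1). Of the 4 genes, 1 was higher and 3 were lower with Aβ, and all 4 intervals included 1, as did those of 9795 of all 12980 genes. Their summed level was 840 TPM with Aβ and 846 TPM with DMSO.

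Complex III moves electrons from ubiquinol to cytochrome c, and 8 of its 9 genes were higher with Aβ by reads and 7 by TPM. Cyc1, the cytochrome c1 subunit that passes the electron on, had 238 TPM and 2205 reads with Aβ and 221 TPM and 2040 reads with DMSO. Its read ratio was 1.08 (1.01 to 1.15), and it was the 1 gene of the complex called higher (11.1%, beside 12% of all genes). Uqcrfs1, the Rieske iron-sulphur protein, had 260 TPM with Aβ and 251 TPM with DMSO (1.04, 0.981 to 1.11). Uqcrh, the hinge protein that docks cytochrome c, was the lowest, at 232 TPM and 594 reads with Aβ and 255.5 TPM and 626 reads with DMSO (0.946, 0.844 to 1.06). Uqcr10 had the highest ratio but few reads, 23 with Aβ and 17 with DMSO, and an interval from 0.690 to 2.69. The read ratios of the 8 other genes ran from 0.946 to 1.08. The large matrix subunits Uqcrc1 and Uqcrc2 had 226 and 241 TPM with Aβ and 222 and 236 TPM with DMSO, and reads of Uqcrc2 were in part divided. Cytochrome c itself (Cycs, with divided reads), which carries electrons to complex IV and also triggers apoptosis when released, had 363 TPM and 3393 reads with Aβ and 350 TPM and 3255 reads with DMSO. Its read ratio was 1.04 (0.991 to 1.09).

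Complex IV reduces oxygen, and its catalytic subunits are the mitochondrially encoded ones, so the genes here are the nuclear subunits around them. By reads 11 of the 12 expressed genes were higher with Aβ and the median log2 ratio was 0.07, whereas by TPM 7 were higher and the median was 0.01. The read ratio ran from 0.943 to 1.13 in the 10 genes with 200 or more reads. Cox8a had 852 TPM and 1700 reads with Aβ and 830 TPM and 1567 reads with DMSO (read ratio 1.08, 1.01 to 1.16). Cox7b had 537 TPM and 826 reads with Aβ and 508 TPM and 731 reads with DMSO (1.13, 1.02 to 1.25). Both were called higher by reads (16.7% of the 12, beside 12% of all genes) and neither on the TPM scale. Cox5b was lower with Aβ, with 420 TPM and 801 reads with Aβ and 470 TPM and 847 reads with DMSO. Its interval by reads included 1 (0.943, 0.855 to 1.04) and on the TPM scale did not (0.893, 0.810 to 0.985). Ndufa4, once assigned to complex I and now to complex IV, had 326.6 TPM with Aβ and 326.1 TPM with DMSO.

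Several subunits of complex IV have isoforms named for lung, muscle or testis, and most of these were near 0 in both libraries. Cox4i1, the ubiquitous isoform, had 750 TPM with Aβ and 751 TPM with DMSO, whereas its lung isoform Cox4i2 had 2.17 TPM and 9 reads with Aβ and 1.48 TPM and 6 reads with DMSO. Cox4i2 thus held 0.289% of the pair's level with Aβ and 0.197% with DMSO. Cox6a1 had 783 TPM with Aβ and 768 TPM with DMSO, while of the muscle isoform Cox6a2 there was no read with Aβ, which allows up to 3 reads or 0.191 CPM (counts scaled to the library total), and 1 read with DMSO. Cox7a2 had 536 TPM with Aβ and 553 TPM with DMSO, and the muscle isoform Cox7a1 had 0.96 TPM with Aβ and 0.90 TPM with DMSO, both with divided reads. Cox6b2, the testis isoform, was the exception, at 41.7 TPM and 77 reads with Aβ and 41.3 TPM and 72 reads with DMSO (read ratio 1.07, 0.763 to 1.49). Its somatic partner is not analysed here.

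Complex V turns the proton gradient into ATP by a rotating ring of c subunits that drives the F1 head. The 14 genes had a median log2 ratio of −0.02 by TPM (6 higher and 8 lower with Aβ) and 0.03 by reads (10 higher), and their read ratios ran from 0.928 to 1.16. By reads 4 of the 14 were called higher (28.6%) and 1 lower (7.14%), beside 12% and 12.5% of all genes. In the head, Atp5b had 20541 reads with Aβ and 20244 with DMSO (read ratio 1.01, 0.993 to 1.03), and Atp5a1, the alpha subunit, had 17868 with Aβ and 18033 with DMSO (0.988, 0.968 to 1.01). These 2 had the most reads of all members, so their intervals are the narrowest, and both include 1. Atp5c1, the gamma subunit that forms the rotating shaft, had 413 TPM and 3355 reads with Aβ and 390 TPM and 3140 reads with DMSO (1.07, 1.01 to 1.12). Atp5d, the delta subunit at the foot of that shaft, had 247 TPM and 1892 reads with Aβ and 273.5 TPM and 2024 reads with DMSO (0.932, 0.875 to 0.993). The gamma subunit was thus called higher and the delta subunit lower. Atp5e, the epsilon subunit beside them, had 662 TPM and 572 reads with Aβ and 703 TPM and 552 reads with DMSO (1.03, 0.918 to 1.16), and its direction differs between the scales.

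The c subunit is encoded by 3 genes that give the same mature protein. Atp5g1 had 322 TPM and 982 reads with Aβ and 284 TPM and 842 reads with DMSO, a read ratio of 1.16 (1.06 to 1.28). Atp5g2 had 1108 TPM with Aβ and 1135 TPM with DMSO (1.01, 0.962 to 1.05), and Atp5g3 had 629 TPM with Aβ and 628 TPM with DMSO (1.02, 0.968 to 1.07). Atp5g1 therefore held 15.6% of the level of the 3 genes with Aβ and 13.9% with DMSO, and Atp5g2 53.8% with Aβ and 55.4% with DMSO. The 3 together had 2059 TPM with Aβ and 2047 TPM with DMSO. In the peripheral stalk, Atp5o (the subunit that confers oligomycin sensitivity) had 389 TPM and 1625 reads with Aβ and 363 TPM and 1480 reads with DMSO (1.1, 1.02 to 1.18). Of the other stalk subunits, Atp5h and Atp5j had 766 and 403 TPM with Aβ and 802 and 409 TPM with DMSO. Of the small membrane subunits, Atp5l (subunit g) had 866 TPM and 1591 reads with Aβ and 817 TPM and 1416 reads with DMSO (1.12, 1.04 to 1.2). Atp5i (subunit e) had 990 TPM and 298 reads with Aβ and 1025 TPM and 269 reads with DMSO (1.1, 0.934 to 1.31). Atp5j2 (subunit f) was the lowest structural subunit on both scales, at 670 TPM and 930 reads with Aβ and 773 TPM and 999 reads with DMSO. Its interval by reads included 1 (0.928, 0.848 to 1.02) and on the TPM scale did not (0.866, 0.791 to 0.948). Of the 3 membrane subunits, Atp5l was thus the one called higher by reads. Summed over its genes, complex V had 9926 TPM with Aβ and 10056 TPM with DMSO, a ratio of 0.987, and by reads the ratio was 1.01 (0.999 to 1.02).

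Assembly factors insert cofactors and join subunits without staying in the finished complex. Of the 19 assembly factors and related proteins, 14 were higher with Aβ by TPM and 13 by reads, with median log2 ratios of 0.05 by TPM and 0.10 by reads. Their read ratios ran from 0.799 to 1.19 in the 18 with 200 or more reads. By reads 3 of the 19 were called higher (15.8%) and 1 lower (5.26%), beside 12% and 12.5% of all genes. The 8 for complex I had a median of 0.14 by TPM. Ndufaf3 and Ndufaf4, which act together at an early stage of complex I assembly, were both called higher on either scale. Ndufaf3 had 32.8 TPM and 387 reads with Aβ and 27.6 TPM and 324 reads with DMSO (read ratio 1.19, 1.03 to 1.39). Ndufaf4 had 46.3 TPM and 844 reads with Aβ and 39.6 TPM and 723 reads with DMSO (1.16, 1.05 to 1.29). Ndufaf6 (108 reads with Aβ, 92 with DMSO; 1.17, 0.878 to 1.56) and Atp5sl (256 reads with Aβ, 225 with DMSO; 1.13, 0.945 to 1.36), now named Dmac2 and a factor for complex I, lay in the same range with wider intervals. Ndufaf2 was the lowest of the 8, with 124 reads with Aβ and 141 with DMSO (0.877, 0.683 to 1.12), so the factors for complex I had no single direction. Its neighbour in that order, Ndufaf1, had 360 reads with Aβ and 370 with DMSO.

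Among the factors for complex IV, Cox20, a chaperone of the second catalytic subunit, was the lowest member with 200 or more reads. It had 23.5 TPM and 177 reads with Aβ and 29.7 TPM and 221 reads with DMSO (0.799, 0.652 to 0.978), from divided reads. Cox11, which delivers copper, also had divided reads, with 17.1 TPM and 300 reads with Aβ and 14.5 TPM and 255 reads with DMSO (1.17, 0.990 to 1.39). The other copper chaperones, Cox17 and Cox19, had 156 and 17.2 TPM with Aβ and 150 and 16.5 TPM with DMSO. The haem A enzymes Cox10 and Cox15 had 10.69 and 43.3 TPM with Aβ and 10.68 and 44.3 TPM with DMSO, Cox15 with divided reads. Cox7a2l, which joins complexes III and IV into supercomplexes, had 254 TPM and 2055 reads with Aβ and 238 TPM and 1911 reads with DMSO (1.07, 1.01 to 1.14). For complex V, Atp5s (now named Dmac2l) had 90 reads with Aβ and 106 with DMSO (0.847, 0.632 to 1.13). The 10 factors for complex IV had a median log2 ratio of 0.04 by TPM, with 8 higher and 2 lower.

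The 1 member more than 2-fold apart, Cox7a2l2, had divided reads and few of them. It had 5.79 TPM with Aβ and 15.1 TPM with DMSO, from 8.63 reads with Aβ and 21.1 with DMSO, neither whole (read ratio 0.427, 0.172 to 0.974). Cox7a2, whose reads are not whole either, had 985 reads with Aβ and 958 with DMSO. The 2 together had 994 reads with Aβ and 979 with DMSO, whole in both libraries to within 0.011 of a read, and the ratio of these sums was 1.01 (0.926 to 1.11). Likewise Ndufa10l1 had 2.1 reads with Aβ and 0 with DMSO, at or under the 3 reads that a count of 0 allows. Its sum with Ndufa10 was 1796 with Aβ and 1871 with DMSO, again whole, with a ratio of 0.957 (0.897 to 1.02).

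Genes around the chain were read from lists, with the same rule for calls. Of 33 expressed assembly factors outside the symbol pattern, 1 was called higher and 3 lower, beside 12% and 12.5% of all genes, and the median log2 TPM ratio was 0.00, beside 0.01 over all genes. Oxa1l, which inserts subunits into the inner membrane, had 106 TPM with Aβ and 95 TPM with DMSO (read ratio 1.11, 1.03 to 1.2). Coa6, a copper factor of complex IV, had 3.02 TPM with Aβ and 4.11 TPM with DMSO (0.730, 0.578 to 0.920, divided reads), and Lyrm7, a factor of complex III, had 4.21 TPM with Aβ and 5.73 TPM with DMSO (0.731, 0.524 to 1.02). The others called lower were Tmem126a, at 24.7 TPM with Aβ and 30.1 TPM with DMSO, and Atpaf1, at 17.7 TPM with Aβ and 20.2 TPM with DMSO. Pet100 had 23.3 TPM with Aβ and 20.7 TPM with DMSO (1.13, 0.928 to 1.38), and Sdhaf3 had 2 reads with Aβ and none with DMSO, under that limit.

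Of 18 genes of the tricarboxylic acid cycle and pyruvate dehydrogenase, which feed electrons to the chain, 1 was called higher (5.56%, background 12%) and none lower by these intervals (background 12.5%), with a median log2 TPM ratio of 0.02. Pdha1, the catalytic subunit of pyruvate dehydrogenase, had 212 TPM with Aβ and 186 TPM with DMSO (read ratio 1.13, 1.09 to 1.18, divided reads). Ogdh had 83.0 TPM with Aβ and 77.0 TPM with DMSO, Sucla2 had 76.1 TPM with Aβ and 80.8 TPM with DMSO, and Dlat had 43.4 TPM with Aβ and 45.6 TPM with DMSO, and the intervals of these 3 included 1. In the list of the pyruvate and lactate switch, 2 of 5 expressed genes were called higher (40%, background 12%) and 1 lower (20%, background 12.5%). Ldhb, the lactate dehydrogenase of oxidative tissues, had 806 TPM with Aβ and 757 TPM with DMSO (1.07, 1.03 to 1.1). Ldha, the form of glycolytic tissues, had 784 TPM with Aβ and 820 TPM with DMSO (0.956, 0.930 to 0.981). The 2 forms thus had opposite calls, and their order of level by TPM differs between the libraries. By reads Ldha was above Ldhb in both, at 10597 and 8629 reads with Aβ and 11061 and 8077 with DMSO. Pdk1, a kinase that inhibits pyruvate dehydrogenase, had 231 reads with Aβ and 183 with DMSO (1.26, 1.03 to 1.54), while Pdk2 and Pdk3 had 378 and 453 reads with Aβ and 418 and 494 with DMSO, both intervals including 1.

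Of 11 expressed regulators of mitochondrial biogenesis, 1 was called higher and 1 lower (9.09% each, beside 12% and 12.5% of all genes), with a median log2 TPM ratio of 0.00. Ppargc1a, the coactivator that drives transcription of respiratory genes, had 2.14 TPM and 122 reads with Aβ and 3.21 TPM and 177 reads with DMSO, a read ratio of 0.687 (0.541 to 0.871). Esrra, a nuclear receptor that it activates, had 32.5 TPM and 669 reads with Aβ and 27.6 TPM and 569 reads with DMSO (1.17, 1.05 to 1.31). Tfam, which packages and transcribes mitochondrial DNA, had 88.3 TPM with Aβ and 94.9 TPM with DMSO (0.930, 0.854 to 1.01), and Tfb1m had 24.8 TPM with Aβ and 21.5 TPM with DMSO (1.15, 0.982 to 1.36, divided reads). Of the factors named for the first 3 motifs, Yy1 had 62 TPM with Aβ and 58.5 TPM with DMSO (1.06, 0.944 to 1.19), Nrf1 had 28.4 TPM with Aβ and 26.9 TPM with DMSO (1.01, 0.914 to 1.12), and Gabpa had 43.6 TPM with Aβ and 43.5 TPM with DMSO (0.986, 0.927 to 1.05), while its partner Gabpb1 had 20.4 TPM with Aβ and 21.2 TPM with DMSO (0.922, 0.824 to 1.03, divided reads). Among 7 genes for the ATP synthase inhibitor and other electron carriers, Dhodh, which passes electrons from pyrimidine synthesis to ubiquinone, had 207 reads with Aβ and 150 with DMSO (1.38, 1.11 to 1.71), the 1 call in that list (14.3%, beside 12% of all genes called higher). Sqrdl had 59 reads with Aβ and 43 with DMSO (1.37, 0.908 to 2.08). Atpif1, the inhibitor of the ATP synthase, had 343 TPM with Aβ and 382 TPM with DMSO (0.950, 0.851 to 1.06), and Etfa had 125 TPM with Aβ and 134 TPM with DMSO (0.936, 0.867 to 1.01). Among 8 mitochondrial antioxidant enzymes and uncoupling proteins, Sod2, the superoxide dismutase of the matrix, had 149 TPM with Aβ and 135 TPM with DMSO (1.1, 1.04 to 1.16), again the 1 call (12.5%, beside 12% of all genes called higher). Txnrd2 had 18.8 TPM with Aβ and 17.0 TPM with DMSO, Slc25a27 had 12.7 TPM with Aβ and 13.5 TPM with DMSO, and Prdx3 had 171 TPM with Aβ and 180 TPM with DMSO, with intervals that include 1.

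The authors' deposited table of gene ontology terms, labelled as covering genes higher with Aβ, lists 282 terms and 246 distinct genes in them. None of the 97 members is among those 246 genes (0 of 97), which make up 1.44% of the 17049 rows of the expression table, so that a count of 0 among 97 is near that share.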

How the data were processed

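RNA was sequenced from 2 libraries, 1 per group. Per the submitters' processing notes, the aligner was Bowtie2 and the genome build Rnor_6.0, with version, counting tool and annotation not given in the sources used here. A table deposited by the authors gives an estimated count per gene, TPM and FPKM. These deposited counts are not whole, to within 0.001, for 11.6% (Aβ) and 12.2% (DMSO) of 17049 genes, which are called divided reads here; 13 members are among them. The authors' TPM and FPKM are proportional within a library, and effective lengths were computed from FPKM and reads. A further 2 columns, named normalized read counts, were not used.

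Log2 ratios used TPM with a pseudocount of 1 over genes that reached 1 TPM in at least 1 library, which understates the ratio of low genes; the rule of size was 2-fold. Read ratios, Aβ over DMSO per total reads, have 95% intervals by the exact Clopper-Pearson method, conditional on the reads of both libraries, from estimated counts rounded to whole reads. The intervals cover counting error only, and leave out the error of dividing reads between genes. Reads carry no molecular identifiers, so copies of 1 molecule count as separate reads and the intervals can be too narrow. The files hold more than 1 unit the plan allowed, and TPM was taken. Differences of effective length, and medians by range of length, used genes at 20 TPM or more in both libraries with 200 or more reads. Median effective lengths in the DMSO library used genes that reached 1 TPM in at least 1 library.

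The members, lists and tests were chosen with earlier results of these data known. Named genes are core subunits (1 is not reported here), isoform pairs, Sdha to Sdhd, Cyc1, Cycs, the extremes of each complex, the 10 highest and 10 lowest read ratios, members 2-fold apart or with divided reads, and the 2 highest and 2 lowest of each related list; others called by reads were named after their values were seen. By gene number, 95 members were found in a RefSeq table (GRCr8), 16 of them under another symbol, and 2 (Cox11 and Cox7a1) were not; its coordinates are printed for promoters only. Calculations used Python 3.11.15, numpy 2.4.6, pandas 2.3.3, scipy 1.17.1 and matplotlib 3.10.9. They were also run on simulated counts with known folds. Those counts had counting error only, the same effective lengths in both libraries and no divided reads. The simulation therefore does not bear on replicate variation or on the difference between the 2 scales. Alternatives were CPM, other pseudocounts, filters and scaling, and leaving out divided reads; the median-of-ratios factor of the Aβ library relative to library totals was −0.0038 on the log2 scale.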

Additional observations from a re-analysis of the deposited data

How the results depend on the processing

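With CPM in place of TPM, the median log2 ratio was 0.053 over all members, 0.067 in complex I and 0.067 in complex IV. With the share of reads in place of that of TPM, the ratio of summed shares was 1.02 for all members and 1.02 for complex I. It was 1.03 for complex III, 1.04 for complex IV and 1.01 for complex V. By TPM these ratios were 0.993, 0.988, 1.01, 0.996 and 0.987, so that of these all but complex III pass from under to over 1. The counting interval of complex V by reads included 1 (0.999 to 1.02). Complex II stayed under 1, at 0.993 by TPM and 0.996 by reads. Without Ndufb4 the complex I sum ratio was 1.00. Members higher by interval numbered 7 on the TPM scale, and those lower numbered 6 on the TPM scale and 1 with whole reads only (Atp5d). The other 94 values of this kind, and 390 of 392 values of single genes, stayed within set limits. The 2 exceptions were Cox7a2l2 (log2 ratio −0.07) and Ndufa10l1 (−0.05) when summed with their partners. For medians the limit was an interval from the members' ordered ratios. Summed shares and single genes had the counting interval, and the rest a fixed limit. Cox6a2 and Ndufa10l1 have no finite counting limit and were kept as unmoved. With a pseudocount of 0.1 their log2 ratios were −2.79 and 1.49, against −0.67 and 0.24. Cox7a2l2 was within 2-fold by CPM (−0.60) and with a pseudocount of 5 (−0.90). Sums with partners, intervals on the TPM scale, the 200-read minimum, leaving out the like-named copies and the comparison with other short genes were chosen after seeing the data. No paired analysis was possible because each group has 1 library. Depth limits genes with few reads, such as Uqcr10, Cox4i2 and Cox7a1; for the rest the limit is the lack of a replicate.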
